A study of Mus musculus with 3 samples.

Results

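YAP1 and its paralog TAZ, which is encoded by *Wwtr1*, are coactivators that have no DNA-binding domain of their own and reach DNA through the TEAD transcription factors. In the Hippo pathway the MST kinases activate the LATS kinases, which phosphorylate YAP1 and TAZ and keep them out of the nucleus, and angiomotins hold both coactivators at junctions and in the cytoplasm. In the early mouse embryo this pathway is known for its part in separating trophectoderm, where nuclear YAP1 acts with TEAD4, from the inner cells that form the epiblast. The genes described here are the 10 rows of the deposited table that are named *Yap1*, *Wwtr1*, *Tead1*, *Tead2*, *Tead3*, *Tead4*, *Lats1*, *Lats2*, *Amot*, and *Amotl2*, out of 55421 named genes.

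ALSCs are stem cells derived in Activin A and LIF, on fibronectin and in a defined medium, from epiblasts of embryonic day 6.5 mouse embryos. The embryos came from ICR females mated with GOF/GFP males of mixed background, which carry an *Oct4* reporter transgene. PolyA RNA of 3 ALSC libraries (replicates 1, 2, and 3) was sequenced, and all 3 had the same type of cross, medium, and stage. The study calls its RNA-seq libraries biological replicates. The labels do not say whether they came from 1 line or from several, so the spread between them is that of these libraries and may not cover separate derivations. No library of another cell type was analysed, and every comparison below is between genes of the same library or between the 3 libraries.

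The total count on named genes lay between 18037342 and 18724038, and the 10 genes took 0.0752% to 0.0862% of it. Levels are given as FPKM, the count scaled to gene length and to the library's total on named genes, so that genes of different length can be compared. A gene with 3 counts or fewer in a library was taken as not detected there, which covers counting error only. The labelled cell type was checked against epiblast markers, with *Pou5f1* at 648 ± 25.3 FPKM, *Nanog* at 171 ± 18.0 FPKM, and *Sox2* at 119 ± 5.21 FPKM (SD, n = 3), and all 7 of that list reached 1 FPKM in each library. The lowest of them were *Otx2* at 5.08 ± 0.472 and *Fgf5* at 3.89 ± 0.0503 FPKM (SD, n = 3). Among the trophoblast markers, *Cdx2*, *Gata3*, *Elf5*, and *Hand1* had at most 3 counts in any library, and only *Ascl2* of the 7 reached 1 FPKM in all. The summed level of that list was 4.20 to 4.54 FPKM. None of the 6 extraembryonic endoderm markers reached 1 FPKM, and their sum was 0.455 to 0.587 FPKM. Of the 6 fibroblast markers only *Col1a1* reached 1 FPKM in all, with 476, 765, and 580 counts or 5.04 ± 1.11 FPKM (SD, n = 3). *Col1a2* had 32, 64, and 65 counts, and the others of that list had at most 3 in any library.

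*Yap1*, *Wwtr1*, *Tead1*, *Tead2*, *Tead3*, *Amot*, and *Amotl2* were expressed, which here means a level of at least 1 FPKM in every library. *Tead4* and *Lats2* lay around or under that level, and *Lats1* had no count at all. The median over the 10 genes was 3.72 FPKM, against 0.682 FPKM over the 21926 protein-coding genes and 8.21 FPKM over the 11125 genes expressed by this rule. Among the protein-coding genes, 10023 were expressed. From the highest to the lowest mean the order was *Tead2*, *Yap1*, *Wwtr1*, *Amotl2*, *Tead1*, *Amot*, *Tead3*, *Tead4*, *Lats2*, and *Lats1*.

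**Figure D1:**
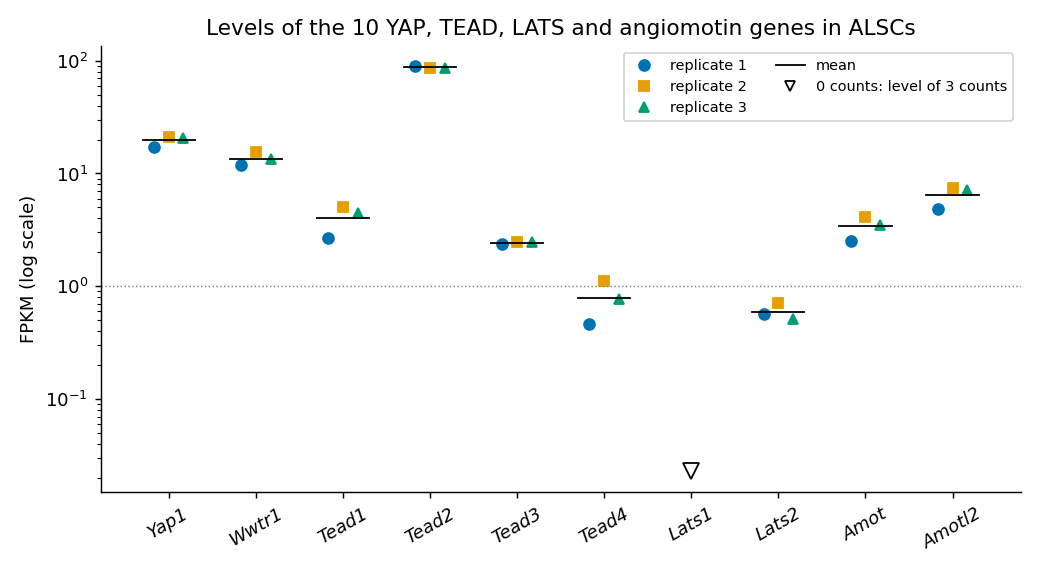
FPKM on a log axis of the 10 genes in each ALSC library (symbols) with the mean (bar); the dotted line marks 1 FPKM and the open triangle the level that 3 counts would give. *Tead2* stands at 86.9 to 89.4 FPKM above all others, and *Lats1* has 0 counts in the 3 libraries.

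Of the coactivators, *Yap1* (ENSMUSG00000053110; GRCm38, chr9:7931999-8004596, minus strand) had 2866, 3675, and 3476 counts in replicates 1, 2, and 3, or 17.1, 21.2, and 20.8 FPKM. Its mean of 19.7 ± 2.26 FPKM (SD, n = 3) placed it higher than 73.9% of expressed genes. *Wwtr1* (ENSMUSG00000027803; chr3:57455649-57575910, minus strand) had 1020, 1377, and 1160 counts, or 11.8, 15.4, and 13.5 FPKM, with a mean of 13.5 ± 1.80 FPKM (SD, n = 3). For both genes replicate 1 was lowest and replicate 2 highest. *Yap1* was above *Wwtr1* in all 3 libraries, by 1.45-, 1.38-, and 1.55-fold, and the mean log2 ratio was 0.54 ± 0.084 (SD, n = 3). A sign test over 3 libraries cannot give a two-sided p below 0.25, so no p is given for this or the other ratios between genes. The size of the ratio depended on the length assigned to *Yap1*, which is 9257 bases over all exons and 4171 bases in its longest coding transcript, and with transcript lengths the log2 ratio was 1.67. The 3 protein-coding genes closest to *Yap1* in level, by Euclidean distance of log2(FPKM + 1) over the 3 libraries, were *Ttc9c* (distance 0.0224), *Efnb2* (0.0315), and *Mapk1ip1l* (0.0344). All of them had their lowest level in replicate 1, as *Yap1* did, which the choice by distance over the same libraries fixed in advance.

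Among the TEAD factors, which bind DNA and recruit YAP1 or TAZ, *Tead2* was by far the most abundant. *Tead2* (ENSMUSG00000030796; chr7:45215753-45233644, plus strand) had 7744, 7793, and 7504 counts, or 89.4, 86.9, and 86.9 FPKM. Its mean of 87.7 ± 1.45 FPKM (SD, n = 3) exceeded that of 93.9% of expressed genes. It was 5.22-, 4.10-, and 4.17-fold above *Yap1* in replicates 1, 2, and 3. *Tead2* is known as the TEAD gene of the early embryo and of neural progenitors. It shares 13 bases with *Cd37* on the other strand, which had 7 to 17 counts.

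*Tead1* (ENSMUSG00000055320; chr7:112679318-112906807, plus strand) had 656, 1287, and 1081 counts, or 2.67, 5.07, and 4.42 FPKM, and a mean of 4.05 ± 1.24 FPKM (SD, n = 3). *Tead3* (ENSMUSG00000002249; chr17:28331671-28350817, minus strand), which is known for its expression in placenta, had 286, 312, and 298 counts, or 2.35, 2.48, and 2.46 FPKM. Its mean was 2.43 ± 0.0680 FPKM (SD, n = 3). *Tead1* was above *Tead3* in each library, but by 1.13-fold in replicate 1 against 2.04- and 1.79-fold in replicates 2 and 3. With the length of the longest coding transcript in place of the gene length, the mean share of *Tead3* in the summed TEAD level was 4.33% and that of *Tead1* 4.05%, so the order of these neighbours was not settled.

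*Tead4* (ENSMUSG00000030353; chr6:128224288-128300823, minus strand), the TEAD gene required for trophectoderm, had 30, 75, and 50 counts, or 0.461, 1.11, and 0.770 FPKM. Its mean of 0.782 ± 0.326 FPKM (SD, n = 3) was the lowest of the family, and replicate 2 alone passed 1 FPKM. In replicates 1, 2, and 3, *Tead2* carried 94.2%, 90.9%, and 91.9% of the summed FPKM of the 4 genes. The mean shares of the others were 4.26% ± 1.29 for *Tead1*, 2.56% ± 0.0683 for *Tead3*, and 0.822% ± 0.340 for *Tead4* (SD, n = 3). The shares are of transcripts, and protein was not measured.

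*Lats1* (ENSMUSG00000040021; chr10:7681214-7716460, plus strand), which encodes 1 of the 2 LATS kinases, had 0, 0, and 0 counts. For its length of 7297 bases a count of 0 allows up to 0.0227, 0.0220, and 0.0228 FPKM in replicates 1, 2, and 3. No other row of the table overlaps *Lats1*, and 100% (to the nearest 0.1%) of the 7160 words of 50 bases in its longest coding transcript occur in no transcript of another gene of GENCODE M21. Its length in the table equals the exonic length in that annotation, as it does for the other 9 genes. A count of 0 in all libraries was found for 5794 of the 21926 protein-coding genes (26.4%).

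The protein-coding genes on both sides of *Lats1* were at or close to 0 as well. *Pcmt1*, which encodes a protein repair methyltransferase, had 0, 1, and 0 counts. *Nup43*, which encodes a subunit of the nuclear pore and lies within the bounds of *Pcmt1*, had 0, 0, and 0 counts. *Katna1*, the catalytic subunit of the microtubule-severing enzyme katanin, had 0, 2, and 1 counts, and *Lrp11* had 0, 0, and 1. These 5 genes follow each other on chr10:7589800-7763150, a stretch of 173 kb in which all 7 named genes together held 5 counts in the 3 libraries. The next gene on one side, *Ginm1*, starts 4.80 kb after the end of *Katna1* and had 277, 129, and 140 counts, and *Ppil4* beyond it had 1002, 1072, and 1132. Further on, *Zc3h12d* was again at 0, 0, and 1, and *Tab2* had 1375, 1604, and 1476 counts. On the other side, *Ulbp1* had no count and *Cnksr3*, 378 kb before *Lrp11*, had 643, 829, and 789. *Ginm1* was highest in replicate 1 and its counts varied by more than counting error (chi-square test of homogeneity, adjusted p = 3.56e-19). Whether this stretch is absent from the genome of these cells, silent, or not counted was not tested.

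**Figure D2:**
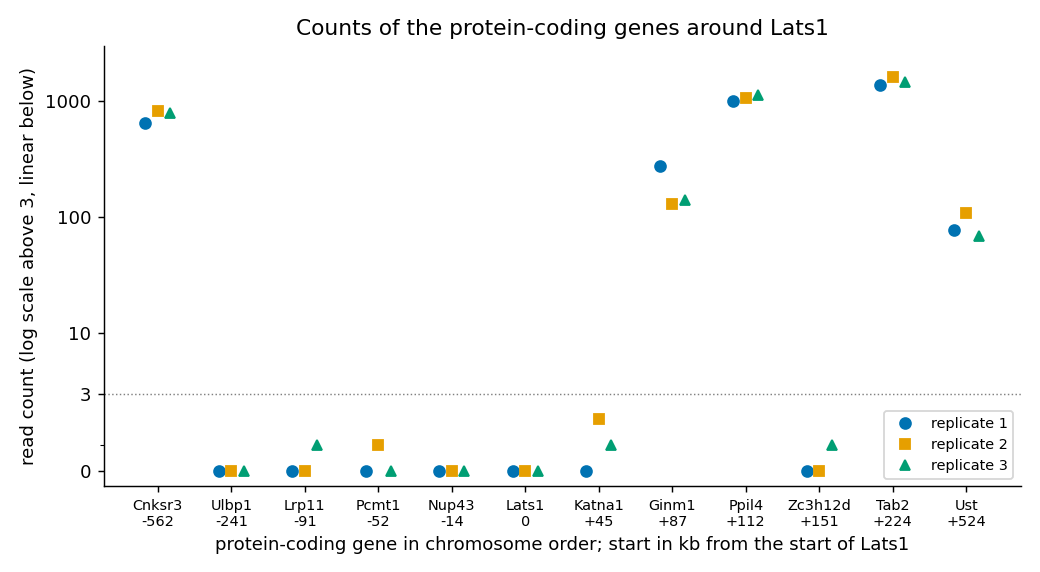
Read counts (log scale above 3, linear below) of the protein-coding genes around *Lats1* in chromosome order, with the start of each gene in kb from the start of *Lats1*; symbols are the 3 ALSC libraries, and the dotted line marks 3 counts. The genes from *Ulbp1* to *Katna1* lie at 0 to 2 counts, and *Cnksr3*, *Ginm1*, *Ppil4*, and *Tab2* at 129 or more.

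The starts of *Lats1* and *Pcmt1* lie head to head, 77 bases apart in the table. The 250 bases before the RefSeq start of *Lats1* (GRCm38.p6, chr10:7680959-7681208, plus strand) are printed because both genes that begin there were at or near 0. Capitals mark the 72 bases between the end of *Pcmt1* in the table and the RefSeq start of *Lats1*.
*Lats1* promoter: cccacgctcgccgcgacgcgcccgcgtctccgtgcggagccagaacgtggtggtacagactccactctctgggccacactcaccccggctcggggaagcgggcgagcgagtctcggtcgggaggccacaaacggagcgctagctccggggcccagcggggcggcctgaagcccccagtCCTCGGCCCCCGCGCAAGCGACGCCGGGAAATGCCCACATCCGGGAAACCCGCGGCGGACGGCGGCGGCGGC
The stretch holds 37 CG dinucleotides and is 74.8% G and C, against medians of 6 and 52.4% over the 32851 windows of the same length in the RefSeq table, and 97.8% of those windows had fewer CG dinucleotides. DNA methylation was not measured in this series.

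*Lats2* (ENSMUSG00000021959; chr14:57689662-57758388, minus strand), the other LATS kinase and itself a known target of YAP1, had 71, 92, and 65 counts, or 0.563, 0.705, and 0.517 FPKM. Its mean was 0.595 ± 0.0979 FPKM (SD, n = 3), under 1 FPKM in every library. *Lats2* was at least 24.8-, 32.1-, and 22.7-fold higher than *Lats1* in replicates 1, 2, and 3, with *Lats1* set at 3 counts in each library. At the level of *Lats2*, *Lats1* would have had 74.3, 96.3, and 68.0 counts. The level of *Lats2* may be understated, since 42.4% of its exonic bases (2955 of 6971) are also exons of *Gm49361*, a read-through gene on the same strand that had 0 counts. If reads on shared bases were left out of the table, the remaining length of 4016 bases gives 0.977, 1.22, and 0.897 FPKM. How the authors counted such reads is not given in the sources used here. By FPKM on full gene length *Tead4* and *Lats2* were not separated, since *Tead4* was the lower in replicate 1 (0.819-fold) and the higher in replicates 2 and 3 (1.58- and 1.49-fold). On the unshared length *Lats2* was above *Tead4* in all 3 libraries.

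The angiomotins *Amot* and *Amotl2* encode junctional scaffolds that bind YAP1 and activate LATS kinases, and *Amotl2* is a known YAP1 target. *Amot* (ENSMUSG00000041688; chrX:145446425-145505181, minus strand) had 386, 647, and 531 counts, or 2.54, 4.11, and 3.50 FPKM, with a mean of 3.39 ± 0.793 FPKM (SD, n = 3). *Amotl2* (ENSMUSG00000032531; chr9:102716672-102733418, plus strand) had 546, 874, and 807 counts, or 4.80, 7.42, and 7.11 FPKM, with a mean of 6.45 ± 1.43 FPKM (SD, n = 3). In every library *Amot* was the lower of the pair, at 0.529, 0.554, and 0.493 of *Amotl2*, and the mean log2 ratio was -0.93 ± 0.086 (SD, n = 3). The third angiomotin, *Amotl1*, was at 6.80 ± 2.37 FPKM (SD, n = 3) and did not separate from *Amotl2*, which was 1.18-fold its level in replicate 1 and 0.915- and 0.866-fold in replicates 2 and 3.

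The counts of 9 of the 10 genes could be tested for variation between the libraries with a chi-square test of homogeneity, with Benjamini-Hochberg adjustment over all genes tested. Of these, 7 varied by more than counting error, where 47.2% of all genes tested and 6741 of 11116 expressed genes tested did. In 6 of the 7 the lowest level was in replicate 1. Of all genes tested 22.1% varied with their lowest level there, and 3006 of the expressed genes did. *Tead1* varied most clearly (adjusted p = 3.14e-33), followed by *Amotl2* (3.98e-12), *Yap1* (7.35e-11), *Amot* (1.32e-09), *Tead2* (8.74e-07), *Wwtr1* (7.33e-06), and *Tead4* (0.00122). *Tead2* did not pass when plain totals, on which FPKM rests, were the library sizes (adjusted p = 0.201). *Tead3* and *Lats2* did not pass the test (adjusted p = 0.997 and 0.269). The test sets these libraries against counting error alone, and usual differences from culture to culture also count toward it. Without replicate 1, only *Wwtr1* and *Tead1* still passed (adjusted p = 0.0383 and 0.0411), or 2 of 9, against 8.11% of all genes tested and 1117 of 11103 expressed genes. Without replicate 2, *Wwtr1* and *Tead4* did not pass (adjusted p = 0.0738 and 0.0821).

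Long genes as a class were lower in replicate 1. Over 10577 genes whose mean count was 100 or higher, the median log2 deviation of replicate 1 from the mean of the 3 libraries was 0.26 in the shortest of 20 length groups (median 685 bases) and -0.35 in the longest (median 15648 bases). *Tead1*, at 13570 bases the longest of the 10 genes, deviated by -0.50 in replicate 1 and by -0.15 once the length trend was removed. *Yap1* went from -0.15 to 0.04, so that little of its deviation in replicate 1 was left. *Amot* went from -0.34 to -0.17, and *Amotl2* from -0.35 to -0.27. *Tead4*, the shortest of the 10 genes at 3598 bases, kept its deviation, with -0.62 before and -0.66 after, on 30 counts in replicate 1. The part of the length trend in these differences was not tested beyond this. Counts of varied genes, here and in the lists below, were made without removing that trend.

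**Figure D3:**
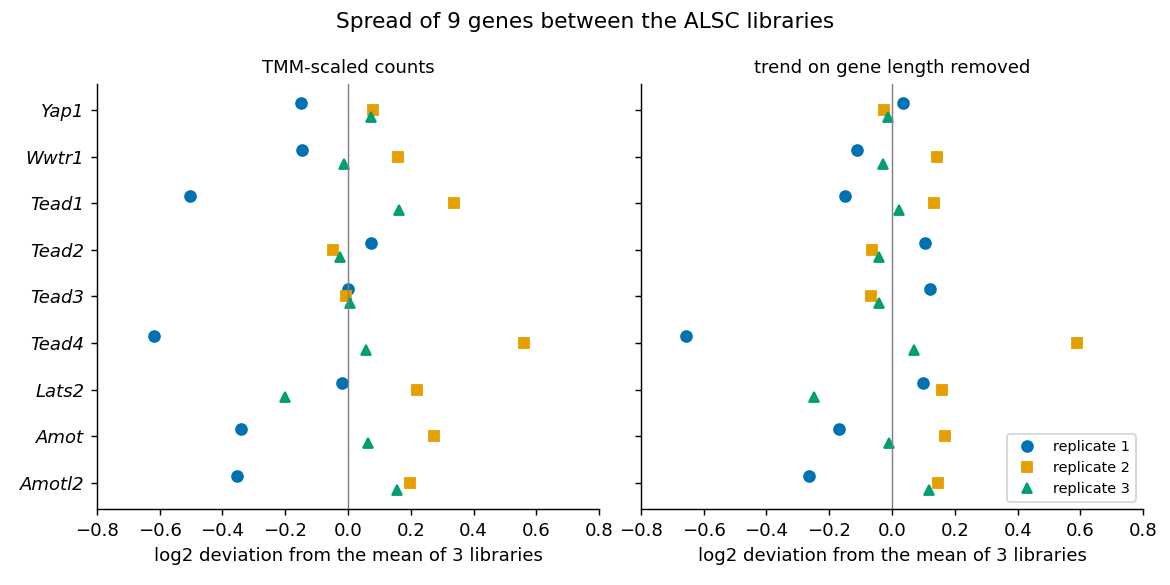
Log2 deviation of each ALSC library (symbols) from the mean of the 3, for the 9 genes with counts, from TMM-scaled counts (left) and with the trend on gene length removed (right). *Tead1* in replicate 1 goes from -0.50 to -0.15 and *Yap1* from -0.15 to 0.04, while *Tead4* stays apart at -0.66.

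All 11 genes of the kinase list, which holds the MST, MAP4K4, TAO, and NDR kinases and adaptors, were expressed. The median was 7.09 FPKM. The highest levels were those of *Mob1a*, a coactivator of LATS, at 21.2 ± 2.80 FPKM, of *Map4k4*, a kinase that acts in parallel with MST, at 19.6 ± 3.78 FPKM, and of *Stk4*, which encodes MST1, at 16.2 ± 3.16 FPKM (SD, n = 3). *Mob1b* at 1.58 ± 0.182 FPKM and *Stk3*, which encodes MST2, at 3.98 ± 0.0767 FPKM were the lowest (SD, n = 3). *Mob1a* was 13.0-, 13.3-, and 13.7-fold above *Mob1b* in replicates 1, 2, and 3. The NDR kinase *Stk38*, a relative of LATS, was at 7.09 ± 0.481 FPKM (SD, n = 3), against 0.595 FPKM for *Lats2* on its full length and 1.03 FPKM on its unshared length. Of the 11 genes, 7 varied between the libraries, all with their lowest level in replicate 1, and 1 varied without it. Over all expressed genes tested, 6741 of 11116 varied, 3006 of them with their lowest level in replicate 1, and without that library 1117 of 11103 did, so the share of the kinase list that varied was near that of expressed genes.

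Of the 12 scaffold genes upstream, 10 reached 1 FPKM in all libraries. *Ajuba*, a LIM protein that restrains LATS, was at 32.2 ± 4.10 FPKM, *Nf2*, which brings LATS to the membrane, at 20.1 ± 3.84 FPKM, and *Wtip*, an *Ajuba* relative, at 13.8 ± 0.318 FPKM (SD, n = 3). The atypical cadherin *Fat4* had 1, 0, and 4 counts, and its ligand *Dchs1* was at 1.09 ± 0.325 FPKM, under 1 FPKM in replicate 1. Of the 11 genes tested, 9 varied, all lowest in replicate 1, and 0 of 11 did without it, where 47.2%, 22.1%, and 8.11% of all genes tested did so. The expressed genes tested had higher shares, with 6741 of 11116 varied, 3006 of them lowest in replicate 1, and 1117 of 11103 without it.

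Among the 8 genes that oppose MST through the STRIPAK phosphatase complex, *Ppp2r1a* was at 127 ± 2.13 FPKM and *Ppp2ca* at 59.9 ± 1.30 FPKM, and the lowest were *Strn* at 3.59 ± 0.652 and *Sike1* at 5.53 ± 0.321 FPKM (SD, n = 3). The first pair also serves many other phosphatase complexes. The list of YAP1 retention and turnover genes was led by the 14-3-3 genes *Ywhae* at 580 ± 35.6, *Ywhaz* at 117 ± 2.34, and *Ywhaq* at 108 ± 6.16 FPKM, and its lowest members were the ubiquitin ligase genes *Btrc* at 2.76 ± 0.212 and *Siah2* at 5.35 ± 0.469 FPKM (SD, n = 3). All 8 and all 11 genes of these lists were expressed. In the first list 6 of 8 genes varied, 3 with their lowest and 3 with their highest level in replicate 1, and 2 varied without it. In the second 8 of 11 varied, 4 each way, and 3 varied without replicate 1. Over all expressed genes tested, 6741 of 11116 varied, 3006 with their lowest and 3446 with their highest level in replicate 1. Without that library 1117 of 11103 did. The polarity and junction list, whose proteins set where angiomotins and NF2 sit, also had all 15 genes at that level, with *Ctnna1* at 52.6 ± 3.92, *Llgl1* at 35.8 ± 6.05, and *Prkci* at 27.3 ± 3.95 FPKM, and with *Patj* at 1.67 ± 0.348 and *Pard3* at 3.98 ± 0.953 FPKM at the low end (SD, n = 3). In this list 14 of 15 genes varied between the libraries, 13 of them with their lowest level in replicate 1, and 0 of 15 did without that library. Of all genes tested 47.2%, 22.1%, and 8.11% did so. Of the expressed genes tested 6741 of 11116, 3006 of 11116, and 1117 of 11103 did. With the length trend removed, the log2 deviation in replicate 1 went from -0.386 to -0.035 for *Pard3* and from -0.324 to 0.027 for *Patj*. *Ctnna1* went from -0.079 to 0.041, *Prkci* from -0.206 to -0.126, and *Llgl1* from -0.252 to -0.221.

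The VGLL cofactors compete with YAP1 for TEAD. Only *Vgll4* was at 1 FPKM or more, at 3.03 ± 0.363 FPKM (SD, n = 3). *Vgll1* and *Vgll2* had no count, and *Vgll3* had 12, 0, and 3 counts.

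Of the 20 other genes known as YAP1 targets in many cell types, 17 were detected in every library and 11 were expressed. Of the 21926 protein-coding genes, 13211 were detected in every library and 10023 were expressed. The median over the target list was 1.74 FPKM. *Igfbp3* was highest at 30.6 ± 1.88 FPKM, followed by *Gadd45a* at 9.86 ± 0.501 and *Ccn1* at 8.70 ± 0.918 FPKM (SD, n = 3). *Ccn1* encodes a matrix protein and had 281, 359, and 324 counts, which did not vary by more than counting error (chi-square test, adjusted p = 0.228). *Ccn2*, its paralog, had 142, 92, and 88 counts, or a mean of 2.06 ± 0.596 FPKM (SD, n = 3). It was highest in replicate 1, with a log2 deviation of 0.50 there and 0.42 with the length trend removed, and it varied between the libraries (adjusted p = 6.53e-05, chi-square test), though not without replicate 1 (adjusted p = 0.982). *Axl*, a receptor kinase, was at 2.65 ± 0.377 FPKM (SD, n = 3). *Ankrd1*, a nuclear cofactor strongly induced by YAP1 in many adherent cells, had 0, 0, and 2 counts, and *Foxf2* had 0, 1, and 1. Of 18 targets tested, 9 varied, a share near the 47.2% of all genes tested. Of these, 7 were lowest in replicate 1 and 2 highest there, and 22.1% of all genes tested varied with their lowest level there. Without replicate 1, 1 of 18 targets varied, against 8.11% of all genes tested. Among the 7 is 1 gene that was also counted in the scaffold list.

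**Figure D4:**
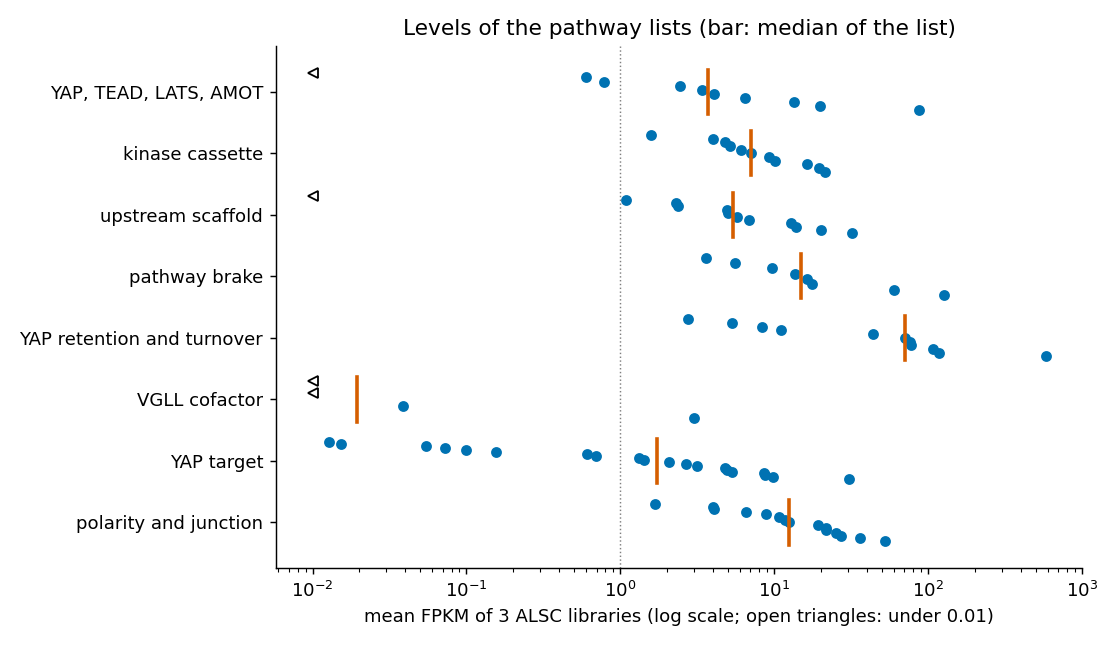
Mean FPKM over the 3 ALSC libraries on a log axis for each gene (points) of the 10 genes and of 7 other lists of the pathway, with the median of each list (bar); open triangles are genes under 0.01 FPKM. The kinase, brake, retention, and polarity lists lie wholly above 1 FPKM (dotted line), while the other lists have members with a mean under it.

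The letters CATTCC, the core of the element that TEAD factors bind, or GGAATG on the other strand, occurred in the 250 bases before a RefSeq start in 4 of the 8 of the 10 genes with a window, which were *Yap1*, *Wwtr1*, *Tead3*, and *Amotl2*. *Tead1* and *Tead4* had no window. Of the 20 other targets 13 had a window and 5 held the letters, and of all 27025 genes 14.4% did. A gene with several windows had more chances to hold them. The sites of the coactivators, of *Amotl2*, and of the targets *Ccn1* and *Axl* are printed on the strand of the gene, with the match in capitals, to show the letters side by side.
*Yap1* (GRCm38.p6, chr9:8004722-8004747): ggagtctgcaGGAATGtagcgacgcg
*Wwtr1* (chr3:57576031-57576056): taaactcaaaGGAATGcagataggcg
*Amotl2* (chr9:102717729-102717754): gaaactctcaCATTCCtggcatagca
*Ccn1* (chr3:145650073-145650098): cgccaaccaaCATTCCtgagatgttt
*Axl* (chr7:25788951-25788976): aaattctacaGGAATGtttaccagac
The match of *Amotl2* begins 65 bases before the RefSeq start, that of *Ccn1* 103 bases, that of *Yap1* 141 bases, and that of *Axl* 233 bases. The site of *Amotl2* lies inside the bounds of the counted gene (chr9:102716672-102733418), whose start is further upstream than that RefSeq start. Binding was not measured in this series, so a match is a description of the letters only.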

How the data were processed

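PolyA RNA of 3 ALSC libraries was sequenced, and the authors mapped the reads to GRCm38. HISAT2 2.0.5 is named in the submitters' processing notes. The counting program and its handling of strand and shared reads are not given in the sources used here. The authors deposited raw counts per gene with gene lengths, unnormalized. The 3 other count columns match no sample of this series and were not used. Of 55738 rows, 317 without a gene name (0.165% to 0.182% of counts) were left out.

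Expressed means 1 FPKM or above in every library. FPKM was computed from counts, deposited length, and total on named genes. Variation was tested by chi-square on counts against TMM library sizes (edgeR 4.0.16, R 4.3.3), for genes whose counts summed to 10 or more, adjusted by Benjamini-Hochberg, threshold 0.05, and tested on simulated data. Deviations are log2 with a pseudocount of 0.5. Alternatives covered DESeq2 1.42.0 size factors, plain totals, filters, thresholds, transcript lengths, and leaving out each replicate. Python 3.11.15 and SciPy 1.17.1 were used. Sequences came from RefSeq (GRCm38.p6), and transcripts from GENCODE M21.

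The 10 genes and the lists were chosen with earlier results of these data known. Named were all 10 genes, the 3 highest and 2 lowest of each list (and *Ccn1*, *Ccn2*, *Ankrd1*, and *Axl*), and the 3 genes closest to *Yap1*, apart from items that are not reported here. Genes of the *Lats1* neighbourhood, *Amotl1*, and *Stk38* were named after their values were seen.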

Additional observations from a re-analysis of the deposited data

How the results depend on the processing

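No paired analysis was possible because all 3 libraries share 1 condition. Leaving out 1 replicate at a time, 2 to 7 of the 10 genes varied between libraries, against 7 with all, and 1302 to 7486 of all genes against 8003. The lower number of each came without replicate 1. With plain totals as library sizes, *Tead2* no longer varied (adjusted p = 0.201 in the chi-square test), and 6 of the 10 genes did. The length given to a gene moved ratios between genes most. With the longest coding transcript as length, the log2 ratio of *Yap1* to *Wwtr1* was 1.67 in place of 0.54, that of *Amot* to *Amotl2* -1.20 in place of -0.93, and the share of *Tead3* in the TEAD level 4.33% in place of 2.56%. The upper limit of the log2 ratio of *Lats1* to *Lats2* was -4.71. It was -5.12 with transcript lengths and -5.51 with the bases that *Lats2* shares with *Gm49361* left out, an alternative chosen after seeing the data. The deviation of *Yap1* in replicate 1 went from -0.15 to 0.04 with the length trend removed. It was 0.05 with a trend on GC content removed as well, an alternative also added after seeing the data. The number of expressed genes among the 10 was 7 under TMM and DESeq2 scaling, without mitochondrial genes, with transcript lengths, and without any 1 replicate, and 8 at a threshold of 0.5 FPKM. Depth limits *Tead4* and *Lats2*, which rest on 30 to 92 counts, and says of *Lats1* only that it lay under 3 counts.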

Other observations

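The stretch around *Lats1* also holds genes whose protein partners were measured in the same libraries. NUP43 is a subunit of the Y complex of the nuclear pore. The genes of 9 other proteins of that complex, a list made after the count of *Nup43* had been seen, were all at 6.80 FPKM or more, from *Nup98* at 6.80 ± 1.42 to *Nup107* at 56.5 ± 3.24 and *Nup85* at 78.3 ± 3.48 FPKM (SD, n = 3). *Nup37*, which like *Nup43* is a peripheral subunit, had 2038, 1751, and 1773 counts in the 3 libraries, a mean level of 30.5 ± 3.00 FPKM (SD, n = 3). *Nup43* had 0 counts in each.

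The katanin-like genes *Katnal1* and *Katnal2* were at 1.04 ± 0.271 and 3.79 ± 0.378 FPKM (SD, n = 3), while *Katna1* had 0, 2, and 1 counts. The share of 50-base words found in no other gene's transcripts was 100% for *Nup43*, *Pcmt1*, and *Lrp11* and 97.3% for *Katna1*.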
